A study of Mus musculus with 6 samples.

Results

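The aminoacyl-tRNA synthetases were examined in neural stem cells (NSCs) grown at 21% O2, as 36 nuclear genes of 53110 listed. The set was chosen by gene name, as 20 enzymes of the cytosol and 16 enzymes of the mitochondrion whose names end in ars2. All 36 were found, 35 under their own symbol and Mars1 under its older symbol Mars, and all 36 were above the filter of 10 normalized counts on average, with the lowest, Pars2, at 63.9.

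The cells were primary mouse NSCs of the embryonic cortex, kept as adherent cultures in medium with EGF and bFGF. RNA-seq compared wild-type cells (WT) with cells heterozygous for a mutation of Setd5 that had been made with CRISPR-Cas9 (Setd5+/-), both at 21% O2, to ask how the loss of 1 allele of this chromatin gene alters transcription at a high oxygen level. The labels give 3 samples of each genotype, with 10004948, 9995980 and 10003706 reads on genes for WT, against 7146090, 7146147 and 7143309 for Setd5+/-. The 3 samples of a genotype carried a single index and lane in the column names (with the tag cl_A3 in the mutant). They differed by no more than the sampling of read pairs, so they were taken as parts of 1 library and n was 1 per genotype. Index and lane differed between the genotypes, so genotype cannot be told apart from lane, library or clone.

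Each aminoacyl-tRNA synthetase joins 1 amino acid to its tRNAs, which makes it a supplier of every ribosome. The cytosolic enzymes serve translation of nuclear messages, and 8 of them sit in the multisynthetase complex. The mitochondrial enzymes are made in the cytosol, imported, and serve the few proteins encoded by mitochondrial DNA, while Gars and Kars supply both compartments from a single gene. Many cytosolic synthetase genes are known targets of ATF4, a transcription factor that is made when eIF2 is phosphorylated, and in such genes it binds a C/EBP-ATF response element together with a C/EBP-family partner.

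Because the known targets of ATF4 are central to the comparison, the core of this element, TGATGNAA, was searched on both strands in the RefSeq promoter windows of the members (GRCm38.p6, from 250 bases before to 50 bases after the annotated start). The search was chosen after the values had been seen. A window was found for 27 of the 36 members. Of the genes with a window, the motif lay in 5 of 8 cytosolic genes widely listed as ATF4 targets. It lay in 0 of 5 other cytosolic genes and in 0 of 14 genes of mitochondrial enzymes, against 4.51% of 27025 mouse genes searched. The match in Aars, Gars, Iars, Tars and Yars is shown because among the members these letters were found in no other window. Each line is read along the strand of the gene, 5′ to 3′, with the match in capitals on either strand.
Aars, chr8:111033840-111033869, plus strand: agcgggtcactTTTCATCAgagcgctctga
Gars, chr6:55037960-55037989, plus strand: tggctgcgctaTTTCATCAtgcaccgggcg
Iars, chr13:49682126-49682155, plus strand: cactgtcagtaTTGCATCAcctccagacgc
Tars, chr15:11399655-11399684, minus strand: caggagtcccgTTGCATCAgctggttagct
Yars, chr4:129189895-129189924, plus strand: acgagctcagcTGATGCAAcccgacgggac
The first base of the match lay 30 bases before the start in Gars and 15 bases before it in Tars, and it was base 10 of the transcript in Aars, base 8 in Iars and base 4 in Yars. Eprs, Sars and Mars1 had windows without these letters, which says nothing of elements elsewhere in the genes. For contrast, the letters GCGCANGCG are the core of the site of NRF1, a regulator of nuclear genes of mitochondria. They lay in 4 of 14 mitochondrial genes with a window (Iars2, Mars2, Vars2 and Wars2). Of 13 cytosolic genes with a window, 3 held them (Farsb, Kars and Tars), against 7.03% of the 27025 genes searched.

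Values are normalized counts, in which reads per gene are scaled by the depth factor of their sample. The fold change is the ratio of the mean of the 3 Setd5+/- samples to the mean of the 3 WT samples, given as log2 with a 95% counting interval. A gene was called higher or lower where this ratio was at least 1.5-fold and the interval left out no change. The interval covers the sampling of reads only, and nothing here measures how cultures or clones of 1 genotype differ, so no SD and no p-value for genotype are given.

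The libraries differed in ways that bear on the members. On chromosome 1 the 1044 genes tested had a median log2 fold change of 0.54 in favour of the mutant, and 46.5% of them were called higher, while the medians of chromosomes 2 to 19 and X lay between -0.16 and 0.02. Dars, Eprs, Farsb, Iars2 and Mars2 lie on chromosome 1. RNAs of ribosomal origin were much lower in the mutant library, with Gm42418, which lies over a ribosomal RNA unit, at 47022 normalized counts in WT and 3736 in Setd5+/- and mt-Rnr2, the large mitochondrial ribosomal RNA, at 6687 and 1373. Setd5 itself had 2498, 2749 and 2780 normalized counts in WT against 2151, 1990 and 2055 in Setd5+/-, a log2 difference of -0.37 (-0.44 to -0.31). The neural stem cell markers were all detected, 9 of 9, with summed levels of 74334 to 74494 normalized counts in WT and 53715 to 54411 in Setd5+/-. The lower sum came from 1 gene, Fabp7, a fatty acid-binding protein of radial glia, at 36015 and 11490, and without it the other 8 summed to 38263 to 38557 in WT and 42147 to 43028 in Setd5+/-. Of the 9, Vim was called higher, Fabp7 and Hes1 were called lower, and the log2 fold change was above 0 in 4 and below 0 in 5. The 5 oligodendrocyte-lineage markers summed to 11037 to 11257 normalized counts in WT and 6242 to 6394 in Setd5+/-, where Mog was at 0 and Sox10 was near 0, the 4 astrocyte markers to 788 to 808 and 1236 to 1397, and the 5 neuronal markers to 496 to 524 and 242 to 274. Mesenchymal, microglial and endothelial markers stayed at or under 14.3 normalized counts in sum, with Lum, Ptprc and Cx3cr1 at 0 in both libraries, and the part of these differences in the results below was not tested.

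Most cytosolic synthetases that are listed targets of ATF4 were higher in the mutant library, while most mitochondrial synthetases stayed within the limit. The list of targets was written with earlier results of these data known. Among all 16266 genes tested, 33.7% were called, 18.9% higher in Setd5+/- and 14.8% lower. Of the 20 cytosolic enzymes, 10 were called higher and 1 lower, and of the 16 mitochondrial enzymes, 1 was called higher and 1 lower. In such bulk samples, fewer cells with a transcript and less transcript per cell cannot be told apart. The median log2 fold change was 0.57 for the cytosolic and -0.07 for the mitochondrial group, against -0.02 for all genes tested, and the difference of the medians was 0.64. The fold change was above 0 in 17 of 20 cytosolic members and in 8 of 16 mitochondrial members. The model limma at an adjusted p of 0.05, which here compares the reads of the 2 libraries, had 16 cytosolic members higher and 3 lower and 5 mitochondrial members higher and 6 lower, beside 30.3% of all genes higher, 30.9% lower and 61.3% in either direction. Summed over each group, the cytosolic enzymes went from between 16881 and 17096 normalized counts in the WT samples to between 29879 and 30359 in the Setd5+/- samples. The mitochondrial sum went from between 18565 and 18835 to between 12186 and 12372, but 1 gene, Lars2, made up most of it. Without Lars2, the mitochondrial sum was between 4642 and 4779 in WT and between 5433 and 5524 in Setd5+/-, and the median log2 fold change of the other 15 enzymes was 0.01.

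**Figure D1:**
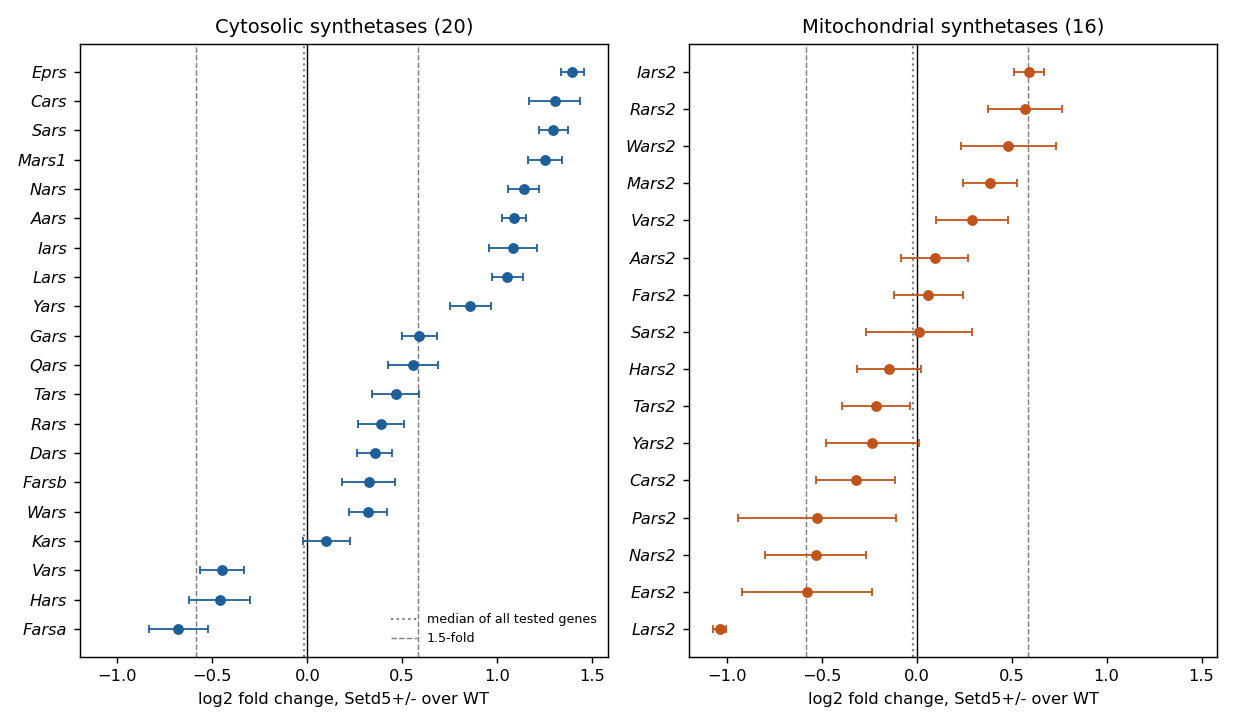
Log2 fold change of each synthetase in Setd5+/- over WT (x axis) by gene (y axis), for the 20 cytosolic (left) and 16 mitochondrial enzymes (right), with bars for the 95% counting interval, dashed lines at 1.5-fold and a dotted line at the median of all tested genes. Cytosolic enzymes spread from -0.68 in Farsa to 1.39 in Eprs, and mitochondrial ones from -1.04 in Lars2 to 0.59 in Iars2.

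The 4 members of the multisynthetase complex that are widely listed as ATF4 targets, Eprs, Mars1, Iars and Lars, were all called higher, and their median was 1.17 on the log2 scale. Eprs (ENSMUSG00000026615, chromosome 1 from 185363044 to 185428360, GRCm38), the bifunctional enzyme for glutamate and proline, had 1648, 1715 and 1785 normalized counts in WT against 4500, 4522 and 4515 in Setd5+/-. Its log2 fold change of 1.39 (1.33 to 1.46) was the highest of all members and stood above the median of the chromosome on which it lies. Mars1 (ENSMUSG00000040354, chromosome 10 from 127296221 to 127311786), the methionine enzyme that also charges the initiator tRNA, had 889, 877 and 831 normalized counts in WT against 2098, 2007 and 2083 in Setd5+/-, or 2.38-fold more (2.24 to 2.53). The groups did not overlap in either gene. Mars1 shares 68 bases of exon with Ddit3 on the other strand, a gene that was itself higher by 2.26 on the log2 scale.

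Iars (ENSMUSG00000037851, chromosome 13 from 49682100 to 49734267), the isoleucine enzyme, had 474, 452 and 448 normalized counts in WT against 974, 990 and 946 in Setd5+/-, a change of 1.08 on the log2 scale (0.96 to 1.21). Lars (ENSMUSG00000024493, chromosome 18 from 42202298 to 42262194), the leucine enzyme, had 1079, 1019 and 1067 in WT against 2150, 2241 and 2175 in Setd5+/-, a change of 1.05 on the log2 scale (0.97 to 1.14). Every mutant sample stood above every WT sample in both genes. A processed pseudogene, Gm4849, matches 1656 bases of Iars at 96.0% identity and went from 328.2 to 742.6 normalized counts, so reads of this pair cannot be told apart with certainty.

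The other 4 members of the complex, Qars, Rars, Dars and Kars, were not called, and their log2 fold changes were 0.56 (0.43 to 0.69), 0.39 (0.27 to 0.51), 0.35 (0.26 to 0.45) and 0.10 (-0.02 to 0.22). Qars, for glutamine, was just short of the limit at 1.47-fold, and the lysine enzyme Kars was the only cytosolic member whose samples overlapped between genotypes, with 633, 668 and 703 normalized counts in WT against 659, 691 and 799 in Setd5+/-. The complex also holds the scaffolds Aimp1, Aimp2 and Eef1e1, which bear no synthetase activity. Aimp2 went from 248, 237 and 259 normalized counts in WT to 118, 174 and 151 in Setd5+/-, a log2 fold change of -0.75 (-0.99 to -0.51). Eef1e1 went from 311, 301 and 289 to 162, 157 and 137, a log2 fold change of -0.98 (-1.22 to -0.75). Aimp1 had 337, 283 and 318 in WT against 517, 463 and 412 in Setd5+/-, and its log2 fold change of 0.57 (0.41 to 0.73) was short of the limit. The 2 lower scaffolds had no sample in the WT range, and neither had Aimp1.

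Of the 12 cytosolic enzymes outside the complex, 6 were called higher and 1 lower, beside 18.9% and 14.8% of all genes tested. The highest were Cars, for cysteine, and Sars, for serine. Cars (ENSMUSG00000010755, chromosome 7 from 143557230 to 143600090) had 373, 358 and 395 normalized counts in WT against 958, 978 and 842 in Setd5+/-, a 2.47-fold difference (2.25 to 2.71). Sars (ENSMUSG00000068739, chromosome 3 from 108424865 to 108445209) had 1207, 1164 and 1149 in WT against 2826, 2814 and 2995 in Setd5+/-, and its log2 fold change was 1.29 (1.22 to 1.37). In both genes all 3 mutant values were more than 2 times the highest WT value.

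Nars and Aars followed closely, and their intervals overlapped each other. Nars (ENSMUSG00000024587, chromosome 18 from 64499647 to 64516652), for asparagine, had 1050, 1099 and 1045 normalized counts in WT against 2263, 2394 and 2372 in Setd5+/-, a change of 1.14 on the log2 scale (1.06 to 1.22). Aars (ENSMUSG00000031960, chromosome 8 from 111033144 to 111057664), for alanine, had 1861, 1987 and 1955 in WT against 4140, 4035 and 4161 in Setd5+/-, a change of 1.09 on the log2 scale (1.03 to 1.15). No mutant value of either gene fell within the WT range. Aars shares exon sequence with Exosc6, a subunit of the RNA exosome, over 1326 bases of transcript, and Exosc6 went from 143.6 to 69.1 normalized counts, the opposite direction to Aars.

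Yars, for tyrosine, and Gars, for glycine, were called higher by smaller amounts. Yars (ENSMUSG00000028811, chromosome 4 from 129189760 to 129219607) had 617, 681 and 624 normalized counts in WT against 1088, 1123 and 1273 in Setd5+/-, a change of 0.86 on the log2 scale (0.75 to 0.97). Gars (ENSMUSG00000029777, chromosome 6 from 55038007 to 55079500) had 926, 997 and 1082 in WT against 1516, 1527 and 1480 in Setd5+/-, a change of 0.59 on the log2 scale (0.50 to 0.68). The samples did not overlap in either gene, but at 1.51-fold Gars lay on the limit, and its call was lost when values were scaled to the library totals (0.55), without the WT sample of replicate 1 (0.54) and without the mutant sample of replicate 2 (0.58). Tars, for threonine, and Wars, for tryptophan, are also listed as ATF4 targets and did not reach the limit. Their log2 fold changes were 0.46 (0.34 to 0.59) and 0.32 (0.22 to 0.42).

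**Figure D2:**
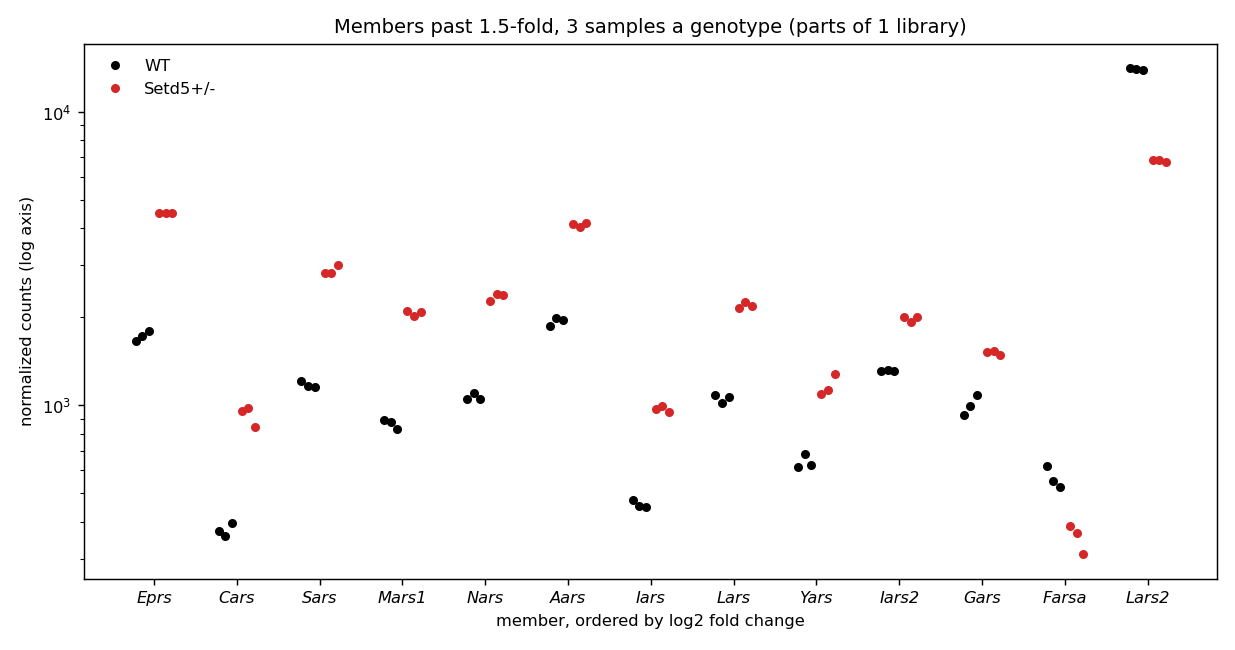
Normalized counts (y axis, log scale) of the 13 members past 1.5-fold (x axis, ordered by log2 fold change), with the 3 WT samples in black and the 3 Setd5+/- samples in red, where the 3 are parts of 1 library. The colours do not overlap in any of the 13 genes, which were picked for their fold change between these samples. Samples did not overlap in 65.3% of all genes tested.

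Hars, Vars and Farsa were the cytosolic members with a negative log2 fold change. None of them is on the list of ATF4 targets, which was written with earlier results of these data known. Farsa (ENSMUSG00000003808, chromosome 8 from 84856989 to 84869257), the catalytic subunit of the phenylalanine enzyme, had 622, 550 and 527 normalized counts in WT against 386, 366 and 310 in Setd5+/-. Its log2 fold change of -0.68 (-0.84 to -0.52) was called, and the samples did not overlap. Farsb, the other subunit of the same tetramer, had a log2 fold change of 0.32 (0.18 to 0.46) and lies on chromosome 1, where 0.54 was the median. The change of Farsb exceeded that of Farsa by 1.00 on the log2 scale (0.79 to 1.21). Hars, for histidine, and Vars, for valine, had log2 fold changes of -0.46 (-0.62 to -0.30) and -0.45 (-0.57 to -0.33), short of the limit. Hars and Hars2 are read from starts 197 bases apart on opposite strands of chromosome 18 and share 195 bases of exon, and Hars2 had a log2 fold change of -0.15 (-0.32 to 0.02).

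Among all genes tested, 18.9% were called higher and 14.8% lower, and the counts of this paragraph stand beside these shares. Read by the list of ATF4 targets, 10 of the 12 listed cytosolic genes were called higher and 0 lower, with a median log2 fold change of 1.09. Of the 8 other cytosolic genes 0 were called higher and 1 lower, with a median of 0.21. Leaving out chromosome 1, the numbers called higher were 9 of 11 with a median of 1.08 and 0 of 6 with a median of -0.17. Of all genes tested on other chromosomes, 2589 of 15211 were called higher. The list was written with earlier results of these data known. Divided further by the complex, the same genes had medians of 1.17 and 0.37 for listed and other members of the complex. For listed and other free enzymes the medians were 0.97 and -0.45. Eprs, Dars and Farsb of chromosome 1 were kept in, and this division of the same list is no separate test of it. Of 8 other genes taken as readouts of ATF4, all with a positive log2 fold change, 6 were called higher. Atf4 itself had 1353, 1388 and 1374 normalized counts in WT against 2098, 2289 and 2099 in Setd5+/-, a log2 fold change of 0.66 (0.58 to 0.73). Asns, which makes asparagine, the substrate of Nars, went from 204, 206 and 216 to 1296, 1334 and 1250, a log2 difference of 2.63 (2.47 to 2.79). Class I and class II are the 2 structural families of synthetases. Of 9 cytosolic enzymes of class I, 5 were called higher and 0 lower, and of 10 of class II, 4 were called higher and 1 lower, while Eprs belongs to both.

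**Figure D3:**
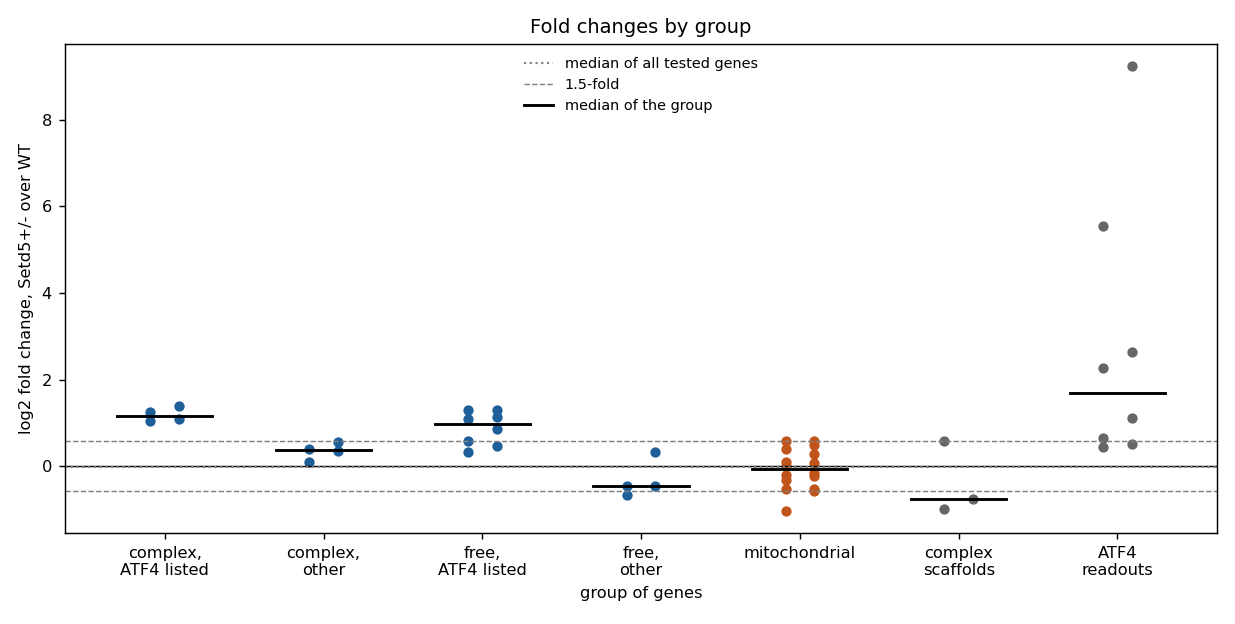
Log2 fold change in Setd5+/- over WT (y axis) of the synthetases and of 2 further lists (x axis), with 1 point per gene, a bar at the median of each group, dashed lines at 1.5-fold and a dotted line at the median of all tested genes. The groups listed as ATF4 targets have medians of 1.17 and 0.97, the mitochondrial enzymes -0.07 and the complex scaffolds -0.75.

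Among the mitochondrial enzymes, Lars2 and Iars2 were the only calls. Lars2 (ENSMUSG00000035202, chromosome 9 from 123366927 to 123462666), for leucine, had 14056, 13980 and 13923 normalized counts in WT against 6848, 6845 and 6745 in Setd5+/-. The samples were far apart, and the gene fell to 0.487 of its WT level (0.476 to 0.499), a log2 fold change of -1.04. Its level stood apart from its family. Per kilobase of exon it stood at 1261 normalized counts in WT and 614.4 in Setd5+/-, which was 8.56 and 2.77 times the next mitochondrial enzyme, Iars2. Ribosomal RNAs moved with it. Besides Gm42418 and mt-Rnr2, mt-Rnr1, the small mitochondrial ribosomal RNA, went from 3497 to 824 normalized counts, and AY036118, from the ribosomal RNA unit, from 43997 to 2823. The protein-coding transcripts of Lars2 were compared with the transcripts of 6 genes of ribosomal RNA or near it. They matched only Gm15564, over 72 bases at 98.6% identity (bases 3278 to 3349 of a transcript of 3894). Gm15564 itself stood at 3.87 normalized counts in WT and 0.397 in the mutant library. The annotated exons of Lars2 span 11089 bases, and exons found only in its other transcripts were not searched. The part of ribosomal RNA in the count of Lars2 was not tested. The genes set beside Lars2 were chosen after the values had been seen.

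Iars2 (ENSMUSG00000026618, chromosome 1 from 185284726 to 185329396), for isoleucine, had 1306, 1312 and 1308 normalized counts in WT against 2002, 1914 and 1999 in Setd5+/-, a change of 0.59 on the log2 scale (0.51 to 0.67). The samples did not overlap, and at 1.51-fold the gene lay on the limit and close to the median of chromosome 1. Its call was lost when values were scaled to the library totals (0.55) and without the mutant sample of replicate 1 (0.58) or replicate 3 (0.58). Iars2 also shares 2034 bases of transcript with Rab3gap2, which went from 1154 to 1683 normalized counts, a log2 fold change of 0.54. Iars2 and Eprs start 33648 bases apart.

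The other 14 mitochondrial enzymes were not called, and their log2 fold changes ran from -0.58 to 0.57. At the upper end, Rars2, for arginine, had 237, 208 and 214 normalized counts in WT against 331, 323 and 325 in Setd5+/-, a change of 0.57 on the log2 scale (0.37 to 0.76), just short of the limit. Wars2, Mars2 and Vars2 had log2 fold changes of 0.48 (0.23 to 0.73), 0.39 (0.24 to 0.53) and 0.29 (0.10 to 0.48), of which Mars2 lies on chromosome 1. In these 4 genes no mutant sample fell within the WT range. At the lower end, Ears2, for glutamate, had 130, 103 and 109 in WT against 65.6, 73.8 and 90.5 in Setd5+/-, a change of -0.58 on the log2 scale (-0.92 to -0.23). Nars2, Pars2 and Cars2 had log2 fold changes of -0.53 (-0.80 to -0.27), -0.52 (-0.94 to -0.11) and -0.32 (-0.53 to -0.11). In these 4 genes, too, no mutant sample fell within the WT range. They were among the thinly read members, with at most 270.0 normalized counts in WT, and Pars2 had the widest interval of all 36. Rars2, Wars2 and Vars2 were also thinly read, with means of 220.0, 136.4 and 257.3 in WT. Tars2, Hars2 and Yars2 had log2 fold changes of -0.22 (-0.39 to -0.04), -0.15 (-0.32 to 0.02) and -0.23 (-0.48 to 0.01). Aars2, Fars2 and Sars2 differed by 0.09 (-0.08 to 0.27), 0.06 (-0.12 to 0.25) and 0.01 (-0.27 to 0.29), and in these 3 genes, as in Yars2, the samples of the genotypes overlapped. Across all members 31 of 36 had samples that did not overlap, 19 of 20 cytosolic and 12 of 16 mitochondrial, against 65.3% of all genes tested.

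**Figure D4:**
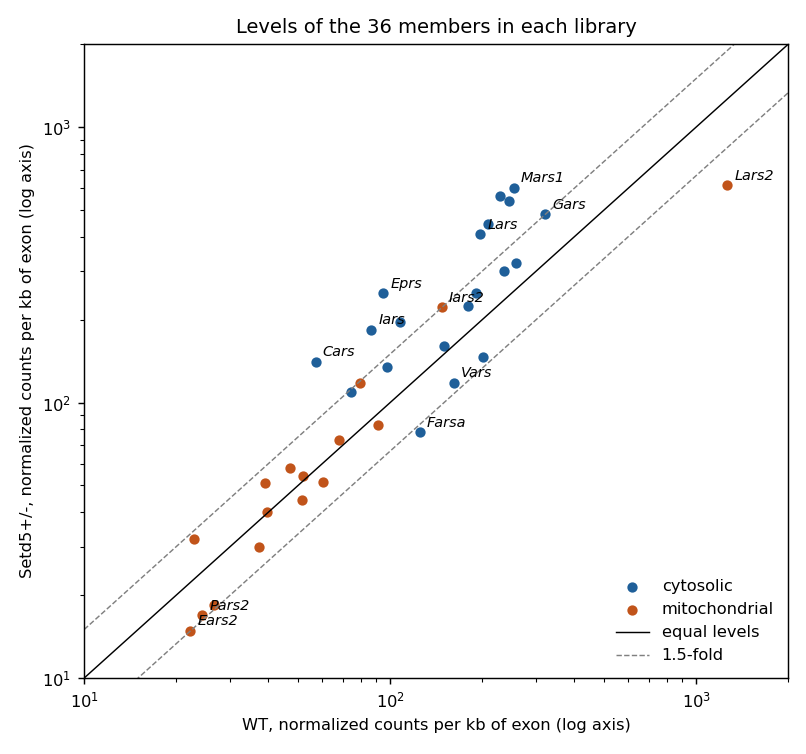
Mean level of each synthetase in WT (x axis) and in Setd5+/- (y axis), in normalized counts per kilobase of merged exon on log axes, with cytosolic enzymes in blue, mitochondrial ones in orange, a solid line at equal levels and dashed lines at 1.5-fold. Most mitochondrial enzymes lie at the lower left near the solid line, Lars2 stands alone at the right with 1261 and 614.4, and 17 of the 20 cytosolic points lie above the line.

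Levels between genes were compared per kilobase of merged annotated exon. This length counts the exons of every annotated transcript, so the value is low where long rare exons are annotated, as in Eprs with 18102 bases. On this scale the cytosolic enzymes had a median of 184.7 normalized counts per kilobase in WT and 236.6 in Setd5+/-, and the mitochondrial ones of 49.3 and 51.1. In WT the highest cytosolic level per kilobase was that of Gars at 321.2, and in Setd5+/- that of Mars1 at 602.6, while the lowest were Cars at 57.0 in WT and Farsa at 78.0 in Setd5+/-. The lowest mitochondrial level was that of Ears2 in both libraries, at 22.2 and 14.9.

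The 2 enzymes of a single amino acid could be set side by side in 17 pairs, in which Eprs was used for glutamate and for proline and Fars2 against both subunits of the cytosolic phenylalanine enzyme. The cytosolic change was higher than the mitochondrial one in 12 pairs, each with a counting interval of the difference above 0, and lower in 5, of which 3 had an interval below 0. The median difference was 0.86 on the log2 scale. Leucine stood furthest apart, with a difference of 2.09 (2.00 to 2.18) between Lars and Lars2, the only pair in which both genes were called and in opposite directions. Per kilobase, Lars was at 0.156 of the level of Lars2 in WT and at 0.664 in Setd5+/-. The difference and these ratios rest on the count of Lars2, in which the part of ribosomal RNA was not tested. Glutamate and proline followed, with differences of 1.97 (1.62 to 2.32) and 1.92 (1.5 to 2.34), then asparagine with 1.67 (1.39 to 1.95) and cysteine with 1.62 (1.37 to 1.87). The glutamate and proline pairs share Eprs, which lies on chromosome 1, where the median was 0.54, while Ears2 and Pars2 lie on other chromosomes. The ratio of Nars to Nars2 per kilobase went from 9.18 in WT to 29.2 in Setd5+/-, and that of Eprs to Ears2 from 4.27 to 16.8.

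The pairs with the mitochondrial enzyme ahead were valine, at -0.74 (-0.96 to -0.52), phenylalanine by its subunit Farsa, at -0.74 (-0.98 to -0.50), and histidine, at -0.31 (-0.55 to -0.08). For arginine and tryptophan the differences of -0.18 (-0.41 to 0.05) and -0.16 (-0.43 to 0.11) had intervals that held 0. Isoleucine had the smallest difference among the pairs whose cytosolic enzyme was called higher, 0.49 (0.34 to 0.64), and Iars2 lies on chromosome 1. Mars2 lies there too, and the methionine pair differed by 0.86 (0.70 to 1.03). For phenylalanine the sign of the difference depended on the subunit, since Farsb exceeded Fars2 by 0.26 (0.03 to 0.49).

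**Figure D5:**
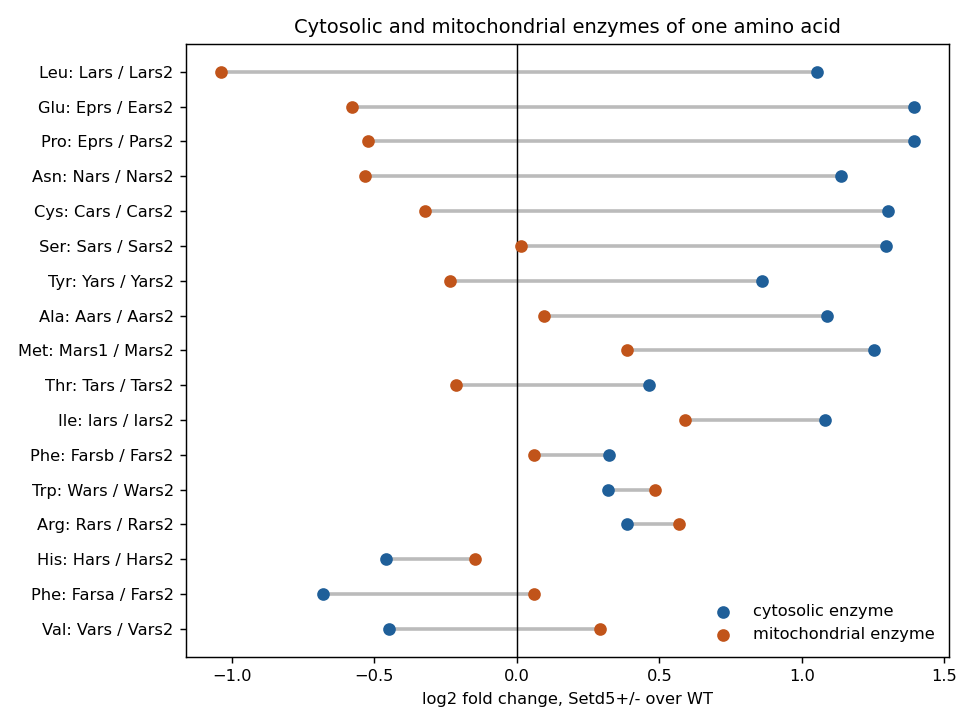
Log2 fold change in Setd5+/- over WT (x axis) of the cytosolic (blue) and mitochondrial (orange) enzymes of 1 amino acid, joined by a grey line, in 17 pairs ordered by their difference (y axis). The blue point lies to the right in 12 pairs, furthest for leucine with a difference of 2.09, and to the left in 5.

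Of 16 other genes of tRNA charging, 1 was called higher and 4 lower, with a median log2 fold change of -0.21. The share called in either direction, 31.2%, was near the 33.7% of all genes tested (18.9% higher and 14.8% lower), and the count is not a result about these genes. The call upward was Xpot, which exports tRNA from the nucleus and went from 459, 467 and 459 normalized counts to 763, 837 and 708, for a log2 fold change of 0.74 (0.61 to 0.87). The calls downward were the scaffolds Aimp2 and Eef1e1, Qrsl1 at -0.67 (-0.93 to -0.41) and Tufm at -0.70 (-1.12 to -0.28). Qrsl1 is the catalytic subunit of the amidotransferase that makes glutamine-tRNA in mitochondria, from the glutamate that Ears2 has attached, and the other subunits Gatb and Gatc were at -0.43 (-0.70 to -0.17) and -0.27 (-0.46 to -0.08), not called. Tufm is the mitochondrial elongation factor that carries charged tRNA to the ribosome. In the cytosol the same task belongs to Eef1a1, at 0.30 (0.27 to 0.34). Trnt1, which adds the CCA end that every synthetase needs, had a log2 fold change of -0.15 (-0.32 to 0.02), with an interval that held 0.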

How the data were processed

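The data were RNA-seq of NSCs at 21% O2, 3 samples per genotype by the labels. Before deposit, the authors used Trimmomatic for adaptors, Bowtie2 for alignment to mm10 and DESeq2, and they deposited normalized counts, in which the reads of a gene are scaled by the depth factor of their sample. The counting program and its use of strand were not given in the sources used here, so reads of overlapping and antisense genes cannot be told apart. Whether cultures were separate is not stated. The table also holds the authors' log2 fold changes, standard errors and p-values, which were not used.

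Decimal points in the deposited table were displaced. They were put back first, using the value of 1 read in each sample (0.829, 0.827 and 0.828 normalized counts in WT and 1.19 in each Setd5+/- sample). In 12296 of 52438 genes the deposited mean settled the choice, and in simulated data with these samples' reads 99.9981% of 314628 values came back exactly. Another 672 listed genes held no value. Chi-square per degree of freedom was 1.94 among the WT samples and 1.92 among the Setd5+/- samples, or 0.970 and 0.960 if both ends of a pair were counted, and 63.4 to 63.9 between genotypes, so the 3 samples of a genotype counted as 1. Counting intervals used the variance so raised.

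The design set out a fold with a counting interval if the 3 samples of a genotype proved to be parts of 1 library. The deposited values were not raw counts, so the alternative test used a log scale in place of a test on counts. In simulated data for this comparison, 86 of 92 genes changed 2-fold or more were called rightly, 179 of 16121 unchanged genes were called, and 94.7% of the intervals held the true value. limma 3.58.1 (R 4.3.3) on log2(normalized count + 1) over genes with a mean of at least 10, with Benjamini-Hochberg adjustment, was an alternative that compares the reads of 2 libraries. Other alternatives were other scalings, filters, folds and a pseudocount of 0.5, leaving out each sample, and leaving out members on chromosome 1 or those that share 100 bases of sequence at 95% identity or of exon with another gene (blastn 2.17.0, GENCODE M21). All members could be named. Full values were given for members past the fold, for the largest rise and fall of each compartment and for pairs of 1 amino acid past the fold in opposite directions. Other members and genes whose sample values are given were chosen after those values were seen. The members, lists and tests were chosen with earlier results of these data known. One gene of tRNA charging outside the set and one promoter match are not reported here.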

Additional observations from a re-analysis of the deposited data

How the results depend on the processing

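No setting turned the direction of a called member. The count of cytosolic synthetases past the fold was 11, and 8 to 12 under the other scalings, filters and left-out samples, members or a fold of 2. It was 18 at a lower limit of 0.32 on the log2 scale and 19 under limma with an adjusted p of 0.05 (16 higher, 3 lower), also with a pseudocount of 0.5. The count of mitochondrial synthetases was 2. It was 8 at that lower limit (4 higher, 4 lower), 1 at a fold of 2, and 11 under limma at either pseudocount (5 higher, 6 lower), where 61.3% of all genes were called. It was 1 without members on chromosome 1, 1 without members that share sequence or exons, and 1 without Lars2, a setting chosen after the data had been seen. Leaving out each sample gave 10 to 12 cytosolic and 2 to 5 mitochondrial calls, and the 5 came without the WT sample of replicate 3, when Ears2, Nars2 and Pars2 were also called lower. As the 3 samples of a genotype were taken as parts of 1 library, leaving out 1 varies only the reads. It cannot show how cultures or clones differ. Scaling to library totals or upper quartiles moved all fold changes by -0.04, ended the calls of Gars and Iars2 and added Ears2, and setting the median of all tested genes to 0 added Rars2. The difference of the medians of the 2 compartments, cytosolic minus mitochondrial, lay between 0.56 and 0.77 in all alternatives. The cause of these moves was not tested.

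With the replicate block limma called 19 cytosolic and 11 mitochondrial members, the same as without it. Samples with the same number did not deviate together (correlations of -0.001 to -0.030 across genes), so they share only a number. Depth of 7143309 to 10004948 reads on genes gave intervals from 0.03 to 0.42 on either side on the log2 scale.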
